A study of Mus musculus with 62 samples.

Results

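The vertebrate neuromuscular junction is the synapse through which a motor nerve excites a muscle fiber, and 10 genes that build its muscle side were followed through every muscle and cell group of a mouse RNA-seq study of the transcription factor ChREBP. The 10 genes were taken by symbol, and each had a row in each of the 4 deposited expression tables, which hold 29239 (chow), 21936 (stress), 21039 (adeno-associated virus) and 17896 (C2C12) gene symbols. They encode the acetylcholine receptor subunits (Chrna1, Chrnb1, Chrnd, Chrne and Chrng), the agrin receptor Lrp4, its partner kinase Musk, the MuSK activator Dok7, the receptor-clustering scaffold Rapsn and the collagen tail Colq that anchors acetylcholinesterase in the synaptic cleft.

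The muscle receptor is a pentamer of α, β and δ subunits with either γ, made in embryonic and denervated muscle, or ε, which replaces γ at the innervated adult junction. In an adult fiber most receptor RNA comes from the few nuclei beneath the nerve ending, where nerve-derived agrin binds LRP4, MuSK and DOK7 are activated and rapsyn holds the receptors in place, while electrical activity keeps the other nuclei silent. Myotubes grown without nerve express the receptor genes along their length. Whole muscle was sequenced here, so fewer synaptic nuclei and less RNA per nucleus cannot be told apart.

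The study held 62 libraries in 14 groups. Muscle knockout mice (ChMKO) carried a ChREBP allele (gene symbol Mlxipl) with exon 8 floxed and Cre under the muscle creatine kinase (Mck) promoter, so that deletion was limited to cells that use that promoter, and their littermates (F/F) carried the same floxed allele without Cre. All mice were male and 8 to 10 weeks old when the experiments began. The chow table compared gastrocnemius (GC, a mixed muscle rich in fast fibers) and soleus (SOL, a slow postural muscle) of untreated F/F and ChMKO mice, with 5 libraries per group. The stress table held GC of F/F and ChMKO mice left untreated (Norm), kept for 14 days in a chamber set to an altitude of 5500 m (Hypo) or fed for 3 months a high-fructose diet with 68% of calories as fructose (HFrD), with 4 libraries per group. In the adeno-associated virus (AAV) table, GC of wild-type C57BL/6J mice was taken 14 days after injection of a control virus (AAV-CON, encoding GFP) or of one that drove ChREBP from the CMV promoter (AAV-ChREBP), which is active in many cell types, with 5 libraries each. C2C12 is a mouse myoblast line that fuses into myotubes in low serum. Its libraries came from day 7 of differentiation of 1 puromycin-selected stable line carrying an empty viral vector (CON) and 1 carrying ChREBP (OE), 4 each. The paper calls the vector retroviral in its methods and lentiviral in its results. With 1 line of each kind, p-values in C2C12 measure the spread between cultures and not between independently made lines.

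The values are FPKM, fragments per kilobase of transcript and per unit of sequencing depth, which are per length and can be set beside each other between genes of 1 table. The 4 tables were normalized separately, so levels in different tables are set side by side without a test. Within a table, groups were compared with limma on log2(FPKM + 1), genes with a mean below 0.5 FPKM were not tested, and a gene was called at a Benjamini-Hochberg adjusted p under 0.05 over all genes tested. Of the 10 genes, 9 were tested in each comparison, because Chrng fell below the filter in muscle and Chrne in C2C12.

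Sequence just upstream of the transcription start is shown for Chrna1, Chrne, Chrng and Musk, since the results turn on these genes and synaptic expression is known to act through short promoter elements: E boxes (CANNTG), which bind myogenic factors such as MYOD and myogenin, the N box (CCGGAA), an ETS-type element that carries the synaptic response to neuregulin, and CACGTG, the core of the element that ChREBP binds. Each line gives the 180 bases before the RefSeq start in build GRCm38.p6, 5′ to 3′ on the strand of the gene, with E boxes and N boxes on either strand in capitals.
Chrna1 chr2:73580339-73580518 minus: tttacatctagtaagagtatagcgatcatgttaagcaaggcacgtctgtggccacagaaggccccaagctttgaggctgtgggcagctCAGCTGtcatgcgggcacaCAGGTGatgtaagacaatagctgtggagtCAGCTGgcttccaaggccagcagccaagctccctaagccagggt
Chrne chr11:70619195-70619374 minus: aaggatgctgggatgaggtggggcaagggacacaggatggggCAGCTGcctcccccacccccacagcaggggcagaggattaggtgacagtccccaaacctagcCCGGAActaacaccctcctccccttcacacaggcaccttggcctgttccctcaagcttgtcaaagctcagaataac
Chrng chr1:87205631-87205810 plus: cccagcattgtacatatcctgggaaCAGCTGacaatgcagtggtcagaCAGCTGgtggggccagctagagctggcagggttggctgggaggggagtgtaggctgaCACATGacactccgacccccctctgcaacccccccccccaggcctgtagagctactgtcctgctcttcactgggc
Musk chr4:58285782-58285961 plus: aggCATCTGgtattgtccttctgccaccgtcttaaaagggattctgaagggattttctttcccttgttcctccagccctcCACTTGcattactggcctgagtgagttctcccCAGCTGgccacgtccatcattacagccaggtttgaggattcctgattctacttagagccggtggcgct

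The Chrna1 window held 3 E boxes, at 92, 73 and 44 bases before the start. The Chrng window held 3, at 155, 132 and 75 bases, and the Musk window 3, at 177, 100 and 68 bases. The Chrne window differed in holding 1 E box, at 138 bases, and 1 N box, at 76 bases, the only N box in the windows of these genes. Windows were found for 6 of the 10 genes (7 windows, since Dok7 had 2), with 3 E boxes for Chrnb1 and 1 or none for Dok7, and none held CACGTG. Over 32851 windows of the same length, 54.1% held an E box, 10.1% an N box and 4.81% CACGTG, so an E box is common by itself, and CACGTG, which is a form of CANNTG and was counted in both, is rare. For Chrng in GENCODE and for Chrne and Musk in the chow table, the gene model starts upstream of the RefSeq start used, so that those windows lie wholly or mostly inside the model. A match is a description of the letters and not a binding site.

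By the positions in the chow table (GRCm38), Chrnd (chr1:87190597-87200070) and Chrng (chr1:87205811-87211835) are neighbours on the plus strand. Chrna1 (chr2:73563281-73580338, minus), Rapsn (chr2:91035459-91045729, plus) and Lrp4 (chr2:91457471-91513901, plus) share a chromosome. Chrnb1 (chr11:69784036-69795974) and Chrne (chr11:70614883-70619365) are both on the minus strand of chromosome 11. Musk is at chr4:58285725-58377848 (plus), Dok7 at chr5:35056563-35087839 (plus) and Colq at chr14:31523082-31577863 (minus). In GENCODE, 4930544D05Rik lies within an intron of Chrne on the opposite strand and shares 0 exon bases with it, Gm13778 shares 4 exon bases with Rapsn on the opposite strand, and Gm24057 and Gm49387 lie over Colq on the same strand and share 199 of its 3803 exon bases. The library kit is not stated to keep strand.

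Depth and sample checks were as follows. Libraries held an estimated 16400000 to 19800000 reads (chow), 14473169 to 23460511 (stress) and 15600000 to 20200000 (AAV), and the depth of the C2C12 libraries is unknown. Mlxipl, measured over the whole gene although only exon 8 is deleted, ranged in GC from 20.4 to 30.3 FPKM in F/F and from 12.5 to 18.5 in ChMKO on chow, and was lower without overlap in ChMKO also in the Norm, Hypo and HFrD groups. In SOL the ranges overlapped, at 43.8 to 64.1 and 30.0 to 46.1. It was 10.4 to 12.3 in AAV-CON and 52.9 to 101 in AAV-ChREBP, and 0 to 0.02 in C2C12 CON and 12.8 to 13.8 in OE. Fiber markers (Acta1, Ckm, Myh4, Myh1, Myh2 and Mylpf) summed to at least 26100 FPKM in every muscle library. Of the 6 motor axon markers, all that were listed were below 1 FPKM in every muscle library and Chat and Slc18a3 were at 0 throughout the AAV and stress tables.

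The stress libraries fell into a pair of sets that the labels do not describe. The first principal component over 10718 genes took 61.6% of the variance, with 12 libraries at 18.8 to 27.5 (all 8 HFrD libraries, the Norm F/F libraries N_WTc397 and N_WTc401 and the Hypo F/F libraries H_WTc360 and H_WTc361) and 12 at −39.4 to −16.3. Within Norm F/F, log2 values correlated at 0.994 between the libraries of the high set and at 0.942 to 0.963 across the sets, while the HFrD libraries correlated at 0.986 to 0.992 with the Norm F/F libraries of the high set. The source of the split was not tested. Values within a set are given below where both groups of a comparison had libraries there. In the chow table GC F/F library 69 and SOL F/F library 71 stood apart from the rest of their groups on the first principal component, and 6 of the 9 tested genes were called between the muscles of F/F mice without either of them, as with both.

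In muscle the adult subunit Chrne was expressed in every library and the fetal subunit Chrng was close to absent, and in C2C12 the order was reversed. In the chow table Chrne was 6.41, 8.88, 5.27, 6.75 and 7.01 FPKM in GC F/F and 4.86, 6.52, 5.66, 5.82 and 3.45 in GC ChMKO. In SOL it was 3.91, 4.58, 3.14, 2.86 and 4.23 in F/F and 3.45, 3.87, 3.61, 3.04 and 3.66 in ChMKO. In F/F every SOL library lay below every GC library, while in ChMKO the lowest GC library lay among the SOL values.

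Chrng in the same libraries was 0.0825, 0.0867, 0.0558, 0.0565 and 0.0280 FPKM in GC F/F and 0.0553, 0.0281, 0.0851, 0.0816 and 0.0275 in GC ChMKO. In SOL it was 0.110, 0.338, 0.134, 0.0551 and 0.214 in F/F and 0.245, 0.125, 0.189, 0.227 and 0.239 in ChMKO. All these values are below the filter and no test was made. The muscles overlapped in F/F and did not overlap in ChMKO, where 43% of all genes tested did not overlap either.

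In the stress table Chrne ranged from 4.84 FPKM (HFrD ChMKO) to 15.4 (Hypo ChMKO). The values were 10.3, 8.47, 7.43 and 5.99 in Norm F/F, 11.2, 8.21, 7.46 and 7.28 in Norm ChMKO, 9.44, 7.28, 10.3 and 8.28 in Hypo F/F and 15.4, 9.58, 9.18 and 10.3 in Hypo ChMKO. With HFrD they were 5.43, 5.42, 7.21 and 5.38 in F/F and 5.15, 5.93, 4.84 and 5.75 in ChMKO. The HFrD groups had the lowest means (5.86 in F/F and 5.42 in ChMKO, against 8.04 to 11.1 in the other 4 groups), and all HFrD libraries belong to the high set.

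Chrng had no read in 9 of the 24 stress libraries, 1 read in 10 and 2 to 6 reads in 4, and 1 read was worth 0.0102 to 0.0166 FPKM. A count of 0 allows up to 3 reads, or 0.0307 to 0.0498 FPKM, and covers counting error only. The exception was Hypo ChMKO library H_KOc345, with 52 reads (0.672 FPKM), against 0 to 0.0148 in the other 3 libraries of its group. The same library also held the highest level in the table of Chrna1 (9.96 FPKM), Chrnb1 (22.1), Chrnd (2.36), Rapsn (13.5) and Colq (4.84), and within its group the highest Myog (15.0 FPKM against 4.92 to 5.87), Mymk (2.88 against 0 to 0.0409) and Myh3 (5.57 against 0.453 to 1.37), which encode a myogenic transcription factor, a myoblast fusion protein and embryonic myosin.

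In the AAV table Chrne was 6.77, 7.37, 5.77, 8.09 and 6.86 FPKM in AAV-CON and 7.02, 6.24, 6.30, 7.54 and 6.47 in AAV-ChREBP. Chrng was 0, 0.069, 0, 0.034 and 0.066 FPKM in AAV-CON and 0.101, 0, 0.413, 0.088 and 0.133 in AAV-ChREBP. For both genes the groups overlapped.

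In C2C12 Chrne was listed at 0 in all 4 CON libraries and at 0.14, 0, 0.05 and 0 FPKM in OE. Chrng was 22.5, 23.9, 24.3 and 23.0 FPKM in CON and 34.5, 34.4, 31.8 and 34.7 in OE. Every C2C12 library thus lay far above the highest muscle value of Chrng (0.672 FPKM) and below the lowest muscle value of Chrne (2.86 FPKM).

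Expressed as Chrng over the sum of Chrng and Chrne in FPKM, the fetal share averaged 0.903% ± 0.324 (SD, n = 5) in GC F/F, 1.04% ± 0.434 in GC ChMKO, 4.08% ± 1.93 in SOL F/F and 5.56% ± 1.55 in SOL ChMKO. The GC libraries spanned 0.399 to 1.48% and the SOL libraries 1.89 to 6.94%, with no overlap in either genotype, as both a lower Chrne and a higher Chrng enter the share. It averaged 0.46% ± 0.471 in AAV-CON and 2.15% ± 2.35 in AAV-ChREBP (n = 5 each), which overlapped, and the 6 stress groups averaged 0.0792 to 1.6%. Single libraries set the highest of these means: without AAV-ChREBP library 4 (6.15%) the AAV-ChREBP mean was 1.14%, and without library H_KOc345 (6.15%) the Hypo ChMKO mean was 0.0835%. In C2C12 it was 100% in each CON library and 99.6 to 100% in OE. No test was made of the share, since its numerator rests on few reads in muscle.

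**Figure D1:**
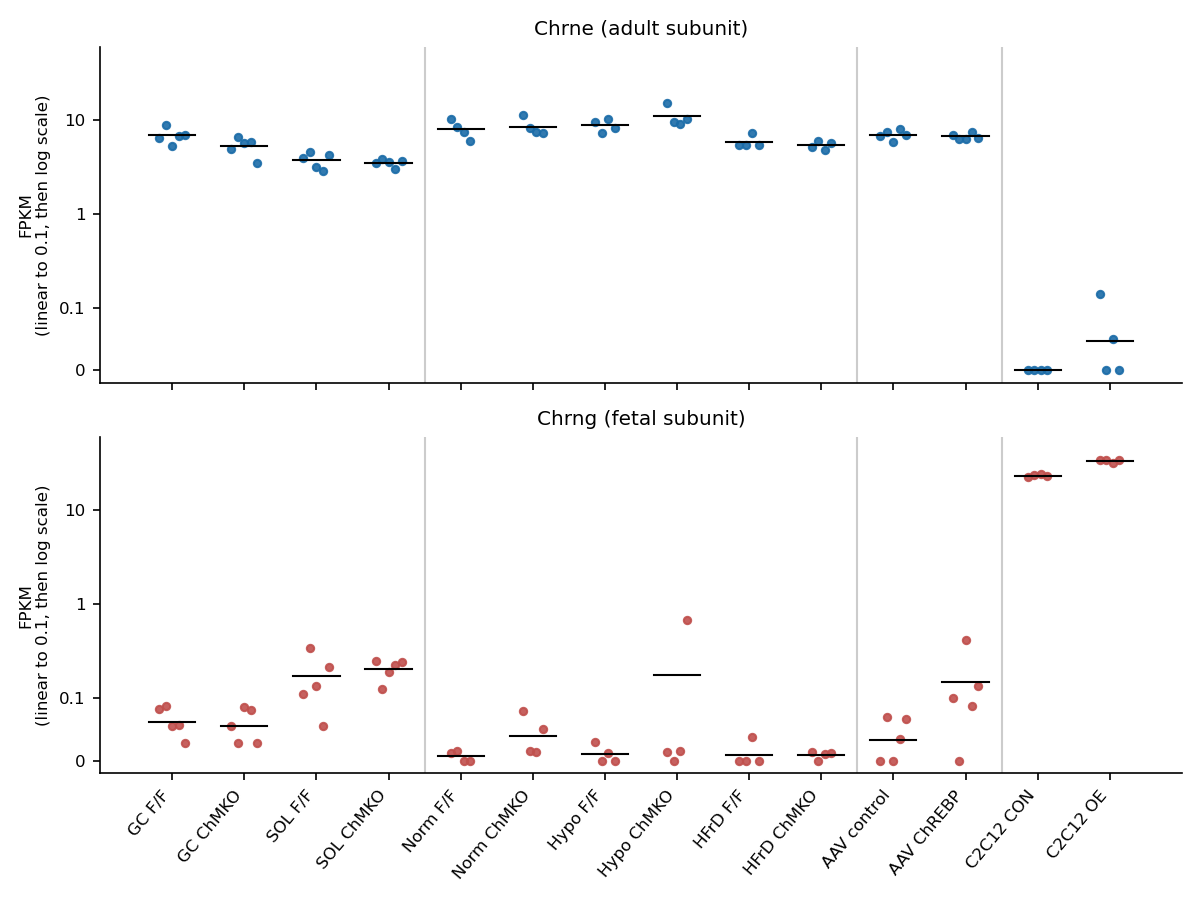
FPKM of Chrne (upper panel) and Chrng (lower panel) in each library, by group, on an axis that is linear up to 0.1 FPKM and logarithmic above it; points are libraries, horizontal lines are group means and vertical grey lines separate the 4 tables, which were normalized separately. Chrne lies between 2.86 and 15.4 FPKM in muscle and at 0 to 0.14 in C2C12, whereas Chrng lies at or below 0.672 in muscle and between 22.5 and 34.7 in C2C12.

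Most of the other genes also had levels in C2C12 outside their range in muscle. Chrna1, the α subunit that binds acetylcholine, was 96.4 to 113 FPKM in C2C12 and 1.20 to 12.9 over the muscle tables. Chrnd was 29.4 to 40.2 in C2C12 and at most 3.41 in muscle, Chrnb1 was 43.7 to 48.2 against 8.95 to 22.1, Rapsn 35.1 to 42.4 against 4.81 to 13.5, and Lrp4 12.4 to 15.6 against 0.650 to 2.96. Colq, at 0.50 to 0.92 FPKM in C2C12, was below every muscle library (0.995 to 8.35). Dok7 (0.92 to 2.23 against 2.16 to 7.50) and Musk (9.89 to 16.9 against 2.16 to 14.3) overlapped between cells and muscle. In muscle Chrnb1 was the most abundant receptor subunit in the median of each table and Chrnd the least abundant after Chrng.

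Soleus and gastrocnemius were compared next, as the muscles differ in fiber type. Of the 9 genes tested, 6 were called in F/F mice, where 50.4% of the 13235 genes tested were called, and 7 in ChMKO mice, where 57.9% of 13080 were called. Groups did not overlap for 4 genes in F/F (35.9% of all genes) and for 4 in ChMKO (43% of all genes). The counts are close to those backgrounds, and the results lie in the direction and size of each gene. The median log2 difference of the 9 genes was 0.33 in F/F and 0.35 in ChMKO, against 0.18 and 0.15 over all genes, and the median size was 0.52 and 0.45, against 0.29 and 0.28.

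Chrna1, Chrnd and Colq were higher in SOL in both genotypes. Chrna1 was 2.79, 4.31, 2.08, 3.54 and 3.22 FPKM in GC F/F and 8.91, 12.9, 11.5, 10.1 and 6.39 in SOL F/F. Its mean was 3.12-fold higher in SOL (log2 difference 1.38 ± 0.18 SE, adjusted p = 0.000129). In ChMKO it was 2.93, 3.54, 2.47, 3.28 and 1.20 in GC and 11.4, 9.58, 9.54, 9.01 and 9.06 in SOL (log2 difference 1.58 ± 0.17, adjusted p = 1.29e-05). No GC library reached the lowest SOL library in either genotype.

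Chrnd, the δ subunit, was 0.587, 1.67, 0.238, 1.39 and 0.599 FPKM in GC F/F and 2.00, 3.41, 3.01, 3.15 and 1.91 in SOL F/F (log2 difference 1.00 ± 0.21, adjusted p = 0.00247). In ChMKO the values were 0.905, 0.800, 0.706, 0.948 and 0.431 in GC and 3.28, 2.71, 2.19, 3.12 and 2.59 in SOL (1.10 ± 0.10, adjusted p = 4.26e-06). The muscles did not overlap, and the means differed 3.01-fold in F/F and 3.66-fold in ChMKO.

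Colq was 1.94, 2.25, 1.67, 2.07 and 2.19 FPKM in GC F/F and 6.20, 8.35, 7.13, 5.20 and 5.74 in SOL F/F. In ChMKO it was 1.55, 2.52, 2.08, 2.23 and 0.995 in GC and 5.03, 5.58, 5.67, 6.91 and 6.99 in SOL. The means differed 3.22-fold in both genotypes (log2 differences 1.30 ± 0.11 and 1.31 ± 0.15, adjusted p = 9.06e-06 and 1.78e-05), again without overlap. Ache, the catalytic subunit that the Colq tail anchors, differed in the opposite direction, by −1.04 ± 0.11 in F/F and −0.997 ± 0.10 in ChMKO on the log2 scale (adjusted p = 2.9e-05 and 9.82e-06).

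Chrne and Chrnb1 were lower in SOL. The mean of Chrne was 6.86 ± 1.31 FPKM (SD, n = 5) in GC F/F and 3.74 ± 0.72 in SOL F/F, a log2 difference of −0.73 ± 0.14 (adjusted p = 0.00115) without overlap. In ChMKO the means were 5.26 ± 1.17 and 3.53 ± 0.31 (−0.45 ± 0.12, adjusted p = 0.00929), and GC library 74, at 3.45, lay among the SOL values. Chrnb1, the β subunit, was 19.6, 14.5, 19.9, 16.8 and 14.8 FPKM in GC F/F and 10.5, 9.70, 10.4, 12.5 and 15.1 in SOL F/F (−0.52 ± 0.13, adjusted p = 0.0065), where SOL library 71 overlapped GC. In ChMKO it was 17.2, 18.2, 19.2, 12.5 and 18.3 in GC and 10.9, 11.1, 11.1, 11.9 and 11.9 in SOL, without overlap (−0.53 ± 0.10, adjusted p = 0.000735).

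Subunits of 1 receptor thus differed in opposite directions between the muscles, with α and δ higher and β and ε lower in SOL. The median gene was 0.18 (F/F) and 0.15 (ChMKO) higher in SOL on the log2 scale. Once libraries were rescaled to remove that shift, Chrna1, Chrnd, Colq, Chrnb1 and Chrne were called in the same directions in both genotypes, with Chrne at −0.90 in F/F and −0.59 in ChMKO (adjusted p = 0.00035 and 0.00306).

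Among the genes of the agrin receptor complex, Dok7 was 4.63, 3.61, 3.10, 3.37 and 3.32 FPKM in GC F/F and 5.86, 5.63, 4.03, 4.36 and 5.42 in SOL F/F (0.39 ± 0.12, adjusted p = 0.0151), and it was not called in ChMKO (0.34 ± 0.14, adjusted p = 0.0594). After rescaling it was not called in F/F either (0.22, adjusted p = 0.157). Lrp4 was called in ChMKO only, at 2.20, 1.21, 1.31, 1.29 and 1.08 FPKM in GC and 2.75, 2.28, 2.36, 2.02 and 1.92 in SOL (0.44 ± 0.12, adjusted p = 0.00662), against 0.33 ± 0.19 in F/F (adjusted p = 0.174). Musk was also called in ChMKO only, at 4.37, 5.05, 3.28, 2.65 and 3.10 in GC and 4.57, 4.87, 4.29, 4.93 and 5.72 in SOL (0.35 ± 0.13, adjusted p = 0.0394), and was −0.16 ± 0.18 in F/F (adjusted p = 0.485). The Musk call did not hold after rescaling (0.20, adjusted p = 0.196) or without any of 7 of the 10 libraries taken 1 at a time. Rapsn was not called (−0.13 ± 0.11 and 0.02 ± 0.18, adjusted p = 0.341 and 0.942), but after rescaling it was lower in SOL in F/F (−0.32, adjusted p = 0.0334). The difference between genotypes in the SOL to GC contrast was tested directly and called none of the 9 genes (1 at an unadjusted p under 0.05, Musk, with a difference of 0.50 ± 0.23 and adjusted p = 0.892), with 0.00759% of all genes called.

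**Figure D2:**
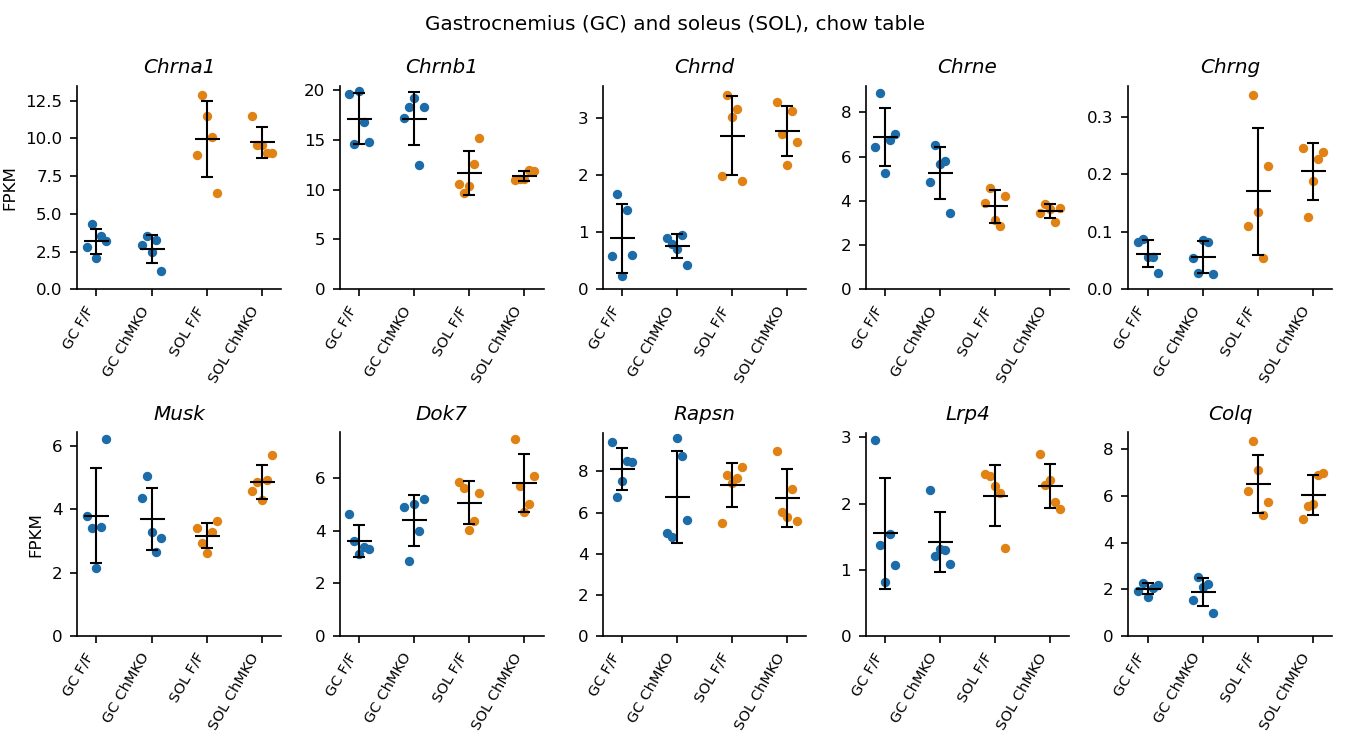
FPKM of the 10 genes in the chow table, in gastrocnemius (blue) and soleus (orange) of F/F and ChMKO mice; points are libraries (5 per group), and bars are the mean and SD. Chrna1, Chrnd and Colq are higher and Chrne and Chrnb1 lower in soleus, with the group means of Chrna1 at 3.19 and 9.95 in F/F.

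Other cell types moved with the muscle as well. Slow-fiber markers (5 of 5 called higher in both genotypes) summed to 33.6 to 523 FPKM in GC F/F and 10200 to 15800 in SOL F/F. Endothelial markers (2 of 2 called higher in both) summed to 23.2 to 46.6 and 69.8 to 120, and red blood cell markers (3 of 3 called higher in both) to 55 to 108 and 144 to 314. Of the 6 fiber markers, 1 was called higher and 3 lower in F/F, and 2 higher and 3 lower in ChMKO. They summed to 43400 to 61700 in GC F/F and 27200 to 31600 in SOL F/F. The list includes the fast-fiber genes Myh4, Myh1 and Myh2, so this sum is not a measure of fiber content. Schwann cell markers were not called in F/F (0 of 7, summing to 18.6 to 453 in GC and 35.7 to 129 in SOL), and 4 of the 5 tested were higher in ChMKO (13.8 to 34.7 and 35.1 to 56.5). Adipocyte markers (2 of 3 called higher in both genotypes) summed to 6.8 to 75.2 in GC F/F and 30.4 to 170 in SOL F/F, and 1 of 3 tenocyte markers was called higher in both. Motor axon markers summed to at most 0.432 FPKM in GC and 0.648 in SOL. The part of these differences in the results for the synaptic genes was not tested.

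Among 34 further synaptic genes, listed for their known roles, 30 were tested, of which 12 were higher and 5 lower in SOL in F/F (17 called, 56.7%) and 14 higher and 6 lower in ChMKO (20 called, 66.7%), against 50.4% and 57.9% of all genes. Beside Ache, the largest in F/F were Scn4a, the muscle sodium channel, at −0.83, Ncam1, a cell adhesion molecule, at 0.79, and Agrn, which encodes agrin, at 0.77. In ChMKO they were Erbb3, a neuregulin receptor, at 0.82, Ncam1 at 0.80 and Scn4a at −0.79. Of 16 genes known to respond to denervation, 6 of 12 tested were called in F/F (3 higher, 3 lower) and 9 of 12 in ChMKO (4 higher, 5 lower). Myh8, perinatal myosin, was the largest at −3.13 and −3.07, and Myod1 (−1.28 and −1.26) and Gadd45a (−1.02 and −1.31) were also lower in SOL, while Cdkn1a was higher (0.98 and 0.90).

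In C2C12 cells overexpressing ChREBP, 5 of the 9 genes tested were higher and 1 was lower than in the vector line. Over all genes 30.5% of 11971 were called, and 31.3% did not overlap between the groups, against 6 of 9 for both counts here. The median log2 difference of the 9 genes was 0.15, against 0.0026 over all genes. The differences were small, at most 1.8-fold, and the 4 cultures of each line varied little.

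Chrng, the fetal subunit, had a mean of 23.4 ± 0.83 FPKM (SD, n = 4) in CON and 33.9 ± 1.38 in OE, a 1.45-fold difference (log2 0.51 ± 0.04 SE, adjusted p = 2.95e-06) without overlap. Musk, at 9.89, 10.4, 11.4 and 11.8 in CON and 15.4, 15.8, 16.1 and 16.9 in OE, rose 1.47-fold (0.52 ± 0.05, adjusted p = 3.31e-05). Dok7 was low throughout, at 1.29, 0.92, 0.96 and 1.31 in CON and 1.78, 1.99, 2.05 and 2.23 in OE, and rose 1.8-fold (0.51 ± 0.08 on the log2(FPKM + 1) scale, adjusted p = 0.000748). The scale understates the change of so low a gene.

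Chrnd rose from 30.6, 31.5, 33.4 and 29.4 FPKM to 40.0, 39.1, 40.1 and 40.2, or 1.28-fold (0.34 ± 0.04, adjusted p = 4.97e-05). Chrna1 rose from 96.4, 101, 100 and 102 to 112, 108, 108 and 113, or 1.11-fold (0.15 ± 0.03, adjusted p = 0.00248). Lrp4 was the only one lower in OE, at 14.9, 13.9, 15.6 and 13.4 in CON and 13.1, 12.4, 12.4 and 13.1 in OE (−0.17 ± 0.05, adjusted p = 0.019). The groups did not overlap for any of these genes, yet the Lrp4 call was lost (adjusted p = 0.0501 to 0.0516) without CON culture 1, OE culture 2 or OE culture 3. Chrnb1 (0.05 ± 0.03, adjusted p = 0.245), Rapsn (−0.06 ± 0.05, adjusted p = 0.335) and Colq (−0.14 ± 0.09, adjusted p = 0.28) were not called, with 95% intervals of −0.02 to 0.12, −0.17 to 0.04 and −0.34 to 0.06.

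**Figure D3:**
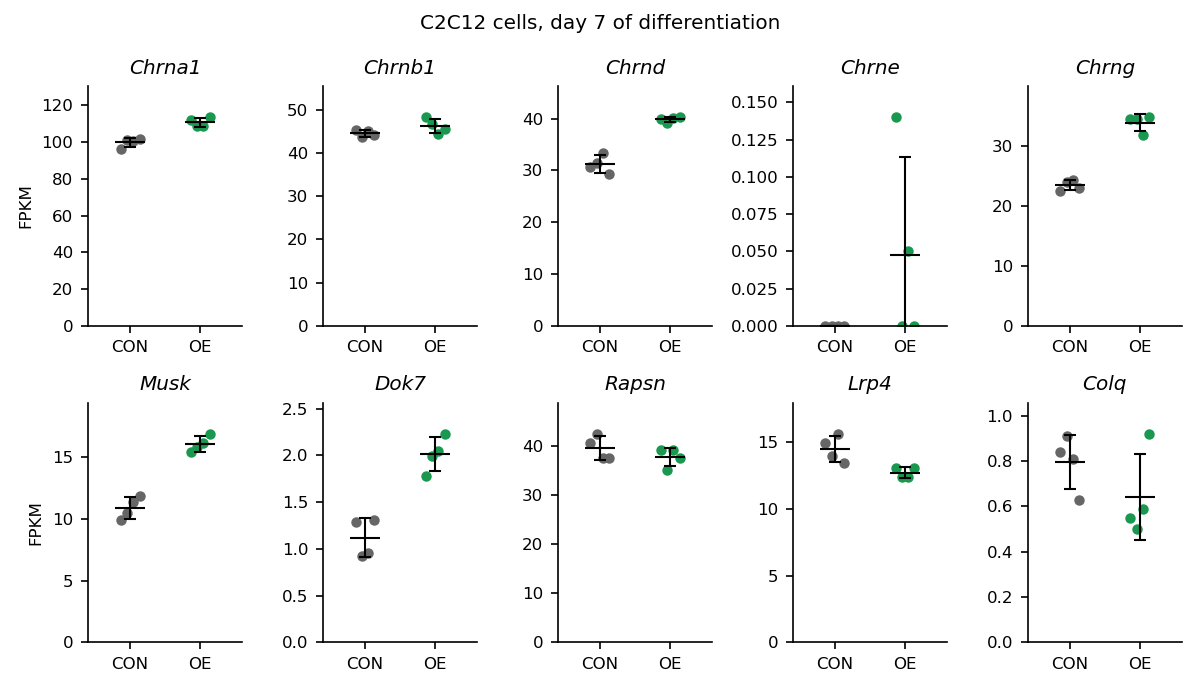
FPKM of the 10 genes in C2C12 cells at day 7 of differentiation, in vector (CON, grey) and ChREBP-overexpressing (OE, green) lines; points are cultures (4 per line), and bars are the mean and SD. Chrng, Musk, Dok7, Chrnd and Chrna1 are higher and Lrp4 is lower in OE, without overlap.

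Markers of differentiation moved in the same cultures. The 8 myotube markers summed to 1020 to 1070 FPKM in CON and 1220 to 1260 in OE, with 6 called higher and 1 lower. Myog, the myogenic factor myogenin, averaged 47.2 and 75.5 FPKM (log2 difference 0.67), and Mymk and Mymx, which encode the fusion proteins, averaged 40.2 and 53.4 (0.40) and 29.9 and 47.7 (0.66). Myod1 averaged 39.8 and 38.1. Fibroblast-type markers, all 3 called lower, summed to 743 to 763 in CON and 592 to 602 in OE. The part of these shifts in the results for the synaptic genes was not tested. Of the 30 further synaptic genes tested, 5 were called higher and 3 lower (26.7%, against 30.5% of all genes), with Erbb3 at 0.43, Nrg1, which encodes neuregulin, at −0.37, Sntb1 at 0.28 and Dtna, a dystrophin-associated protein, at 0.19. Of the denervation-response genes, 8 of 14 tested were called (6 higher, 2 lower), with Myh3 at 0.99, Myog at 0.67 and Hdac9 at 0.60.

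Loss of ChREBP in muscle called none of the 9 genes in any of 5 settings by limma. The share of all genes called was as low, at 0.0236% in GC and 0.0225% in SOL on chow, 0.00922% in Norm, 0.00941% in Hypo and 0.019% in HFrD. At an unadjusted p under 0.05 there were 1, 1, 1, 0 and 3 of the 9 genes, and voom on the reads recovered from the stress table also called 0 in each of its 3 settings. None of the further synaptic genes (29 or 30 of 34 tested) or denervation-response genes (9 to 13 of 16 tested) was called.

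Musk in SOL was the gene with the smallest adjusted p. It was 3.40, 2.93, 2.61, 3.29 and 3.62 FPKM in F/F and 4.57, 4.87, 4.29, 4.93 and 5.72 in ChMKO, higher in all 5 ChMKO libraries and 1.54-fold in the mean (0.50 ± 0.09, 95% interval 0.30 to 0.69, adjusted p = 0.169). It was the 1 of 9 genes whose groups did not overlap, against 2.05% of all genes. In GC on chow Musk showed no such separation (−0.01 ± 0.20), and the test of the difference between muscles is the interaction given above. Chrne in GC averaged 6.86 in F/F and 5.26 in ChMKO (−0.34 ± 0.15, 95% interval −0.66 to −0.01, adjusted p = 1), with overlapping groups, and −0.06 ± 0.11 in SOL.

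In the stress table Rapsn was 7.97, 7.94, 7.65 and 7.08 FPKM in Norm F/F and 11, 8.09, 9.37 and 9.47 in Norm ChMKO (0.27 ± 0.10, adjusted p = 0.419), 1 of 9 genes without overlap where 4.96% of all genes did not overlap. With HFrD, Lrp4 (1.20, 2.22, 1.06 and 1.16 in F/F and 0.873, 0.830, 0.650 and 0.916 in ChMKO, −0.39 ± 0.13, adjusted p = 0.629) and Colq (1.85, 1.77, 2.11 and 1.94 against 1.50, 1.61, 1.66 and 1.55, −0.18 ± 0.05, adjusted p = 0.585) did not overlap, 2 of 9 genes against 4.47% of all genes. Rapsn was −0.16 ± 0.06 with HFrD (adjusted p = 0.648), −0.27 ± 0.17 in chow GC (adjusted p = 1), −0.12 ± 0.13 in chow SOL (adjusted p = 0.751), and 0.09 ± 0.17 with Hypo (adjusted p = 0.789). All 8 HFrD libraries belong to the high set. Over the 5 settings the 95% intervals of Chrne lay within −0.66 and 0.66 on the log2 scale.

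Overexpression by AAV called none of the 9 genes (1 at an unadjusted p under 0.05), with 0.00904% of all genes called. Chrnd was 0.491, 0.475, 0.419, 0.556 and 0.475 FPKM in AAV-CON and 0.690, 0.765, 0.736, 0.802 and 0.842 in AAV-ChREBP, higher in all 5 libraries and 1.59-fold in the mean (0.25 ± 0.06, adjusted p = 1, and adjusted p = 0.45 with the replicate number as a block). It was the only 1 of the 9 without overlap, against 0.579% of all genes. AAV-CON by itself averaged 0.483 FPKM, below the filter, so Chrnd was tested only through its level in AAV-ChREBP (0.767 FPKM). Its separation is therefore a description and no evidence of a change. Chrne (−0.04 ± 0.08, 95% interval −0.22 to 0.13), Chrna1 (−0.09 ± 0.08) and Musk (−0.08 ± 0.10) overlapped. None of the 30 further synaptic and 11 denervation-response genes tested was called.

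**Figure D4:**
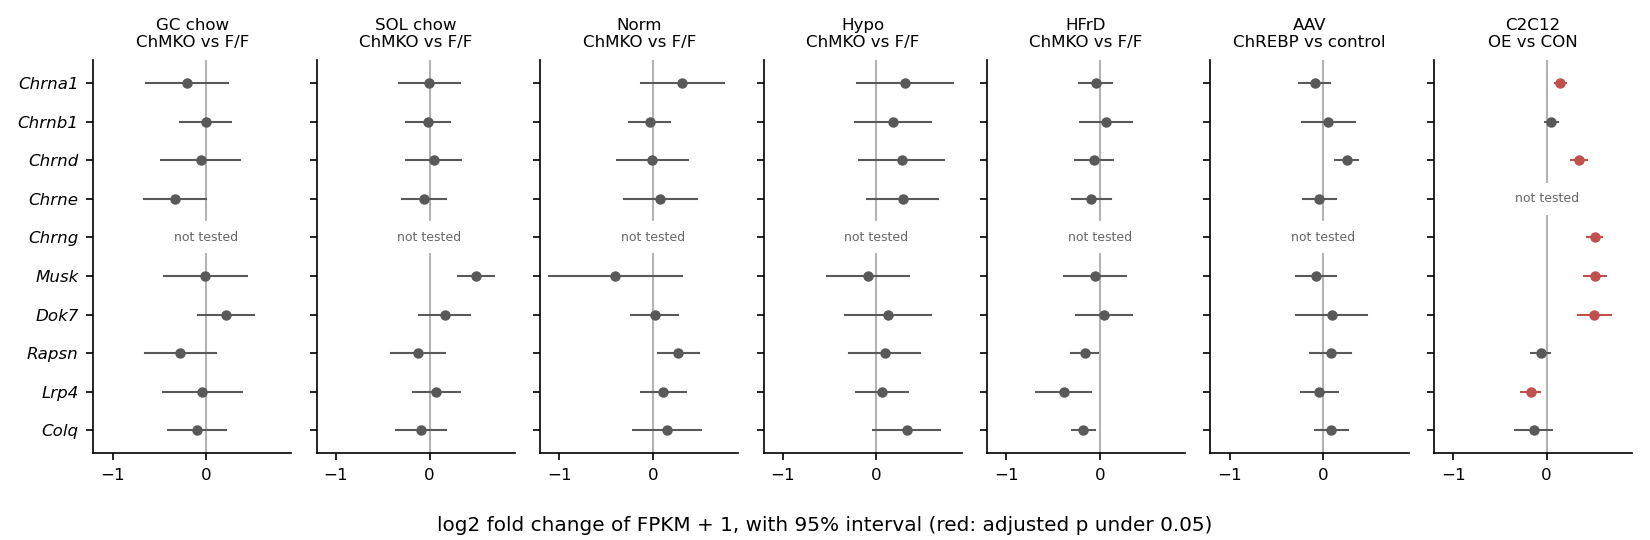
Log2 difference of FPKM + 1 for each gene in the 7 comparisons that change ChREBP (5 knockout against F/F, AAV-ChREBP against AAV-CON, and C2C12 OE against CON), with 95% intervals; red marks an adjusted p under 0.05. Called genes appear only in the C2C12 panel, while intervals that miss 0 without a call lie on both sides of it, above it for Musk in soleus (0.50), Rapsn in Norm (0.27) and Chrnd with AAV (0.25), and below it for Chrne in GC (−0.34) and for Lrp4 (−0.39), Colq (−0.18) and Rapsn (−0.16) with HFrD. With AAV, Chrnd passed the filter only through AAV-ChREBP.

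Hypoxia and the high-fructose diet were compared with the Norm groups, which both share. The treatments lasted 14 days and 3 months, and the age of the Norm mice at harvest is not stated. A difference in age may therefore enter either contrast and was not tested. Hypoxia called none of the 9 genes in F/F, where 0% of all genes were called (411 at an unadjusted p under 0.05, and 0 called by voom), and none in ChMKO, where 0.89% were called. Chrne was 0.13 ± 0.16 in F/F and 0.33 ± 0.17 in ChMKO on the log2 scale (adjusted p = 1 and 0.397), and Chrna1 0.34 ± 0.21 and 0.33 ± 0.21 (adjusted p = 1 and 0.506). For Chrna1 the Hypo ChMKO group includes library H_KOc345, at 9.96 FPKM against 3.80 to 7.51 in the rest. At an unadjusted p under 0.05 there were 0 of 9 genes in F/F and 2 in ChMKO. With the set as a term, F/F still gave 0 calls (smallest adjusted p = 0.265, Chrna1 0.34 ± 0.11).

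In F/F mice the diet called none of the 9 genes (1 at an unadjusted p under 0.05, Chrne), with 0% of all genes called (2531 at an unadjusted p under 0.05, and 0 called by voom). In ChMKO mice it called 6 of 9, close to the 64% called of all genes, and 6 of 9 did not overlap, against 57.2%. Here all 4 HFrD libraries lie in the high set and all 4 Norm libraries in the low set, so diet and set cannot be told apart. Musk was 6.68, 5.67, 5.74 and 6.11 FPKM in Norm ChMKO and 11.3, 8.32, 14.3 and 14.2 in HFrD ChMKO, 1.99-fold higher (0.86 ± 0.15, adjusted p = 0.000786). The other 5 were lower with HFrD, at −0.56 ± 0.09 for Chrna1, −0.56 ± 0.12 for Chrne, −0.51 ± 0.09 for Rapsn, −0.51 ± 0.08 for Colq and −0.40 ± 0.08 for Lrp4 (adjusted p = 0.000507, 0.0031, 0.000779, 0.000363 and 0.00257). The added 1 FPKM shrinks the differences of the genes at low levels most, and by the ratio of mean FPKM Lrp4 was at 0.584 and Colq at 0.587 of the Norm level, against 0.615 for Chrna1, 0.635 for Chrne and 0.667 for Rapsn. Chrna1 was 5.08, 5.35, 5.24 and 4.21 in Norm ChMKO and 3.52, 2.86, 3.20 and 2.63 in HFrD ChMKO. Of the 30 further synaptic genes tested 5 were higher and 17 lower, and of the 9 denervation-response genes tested 1 was higher and 4 lower, where 2078 of all genes were called higher and 4790 lower and the median over all genes was −0.17.

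The same genes also lay apart by set in untreated F/F mice, with 2 libraries on each side. The share of all genes that do so was not computed. In Hypo F/F, also 2 and 2, Chrne overlapped (7.28 and 9.44 FPKM in the low, 10.3 and 8.28 in the high set). The others lay apart there in the same directions. Musk was 4.89 and 5.08 FPKM in the Norm F/F libraries of the low set and 14.1 and 12.8 in those of the high set, and over all groups it spanned 4.89 to 7.49 in the low and 7.81 to 14.3 in the high set. Chrna1 was 4.48 and 5.82 against 2.94 and 2.56 in Norm F/F. Over all groups Chrna1 spanned 3.80 to 9.96 in the low and 2.56 to 4.72 in the high set, Colq 2.20 to 4.84 and 1.50 to 2.47, Rapsn 7.46 to 13.5 and 5.83 to 8.55, and Chrne 7.28 to 15.4 and 4.84 to 10.3. Lrp4, also called for the diet in ChMKO, overlapped widely, at 0.748 to 1.76 in the low and 0.650 to 2.22 in the high set. These values are a description, since the sets were defined from the same libraries. Fiber marker sums were 42100 to 59100 in the low and 31800 to 38100 in the high set, endothelial sums 43.6 to 77.3 and 30.6 to 36.3, tenocyte sums 76.7 to 263 and 39.8 to 94.1, macrophage sums 6.07 to 20.3 and 3.58 to 8.11, and Schwann cell sums 43.9 to 235 and 28.6 to 118. Red blood cell sums were 187 to 760 in the low and 57.1 to 307 in the high set.

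Within a set none of the 9 genes was called, where 0.934% of all genes were called for the diet in F/F (99 of 10599) and 1 gene in each of the Norm and Hypo genotype comparisons. Among high-set libraries, HFrD F/F against Norm F/F gave −0.13 ± 0.09 for Musk and −0.17 ± 0.12 for Chrne (adjusted p = 0.481 and 0.488), against 0.51 ± 0.31 and −0.39 ± 0.15 over all libraries. The Norm group there has 2 libraries, so its spread was estimated mostly from the others. Among low-set libraries, Norm ChMKO against F/F gave 0.24 ± 0.09 for Musk, where the difference over all libraries was −0.40 ± 0.31 (adjusted p = 0.999 and 0.52). Rapsn in the same comparison was 0.22 ± 0.11 (adjusted p = 0.999), against 0.27 ± 0.10 over all libraries. Hypo ChMKO against F/F gave 0.24 ± 0.16 for Musk and 0.35 ± 0.21 for Chrne (adjusted p = 1 for both), where the differences over all libraries were −0.09 ± 0.20 and 0.28 ± 0.17 (adjusted p = 0.81 and 0.532). In both low-set fits the sign for Musk differs from that over all libraries. Those fits leave out the high-set F/F libraries, where Musk is high, and keep 2 F/F libraries each. The sets came from the same data, so the change of sign is a description and not a result about genotype.

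**Figure D5:**
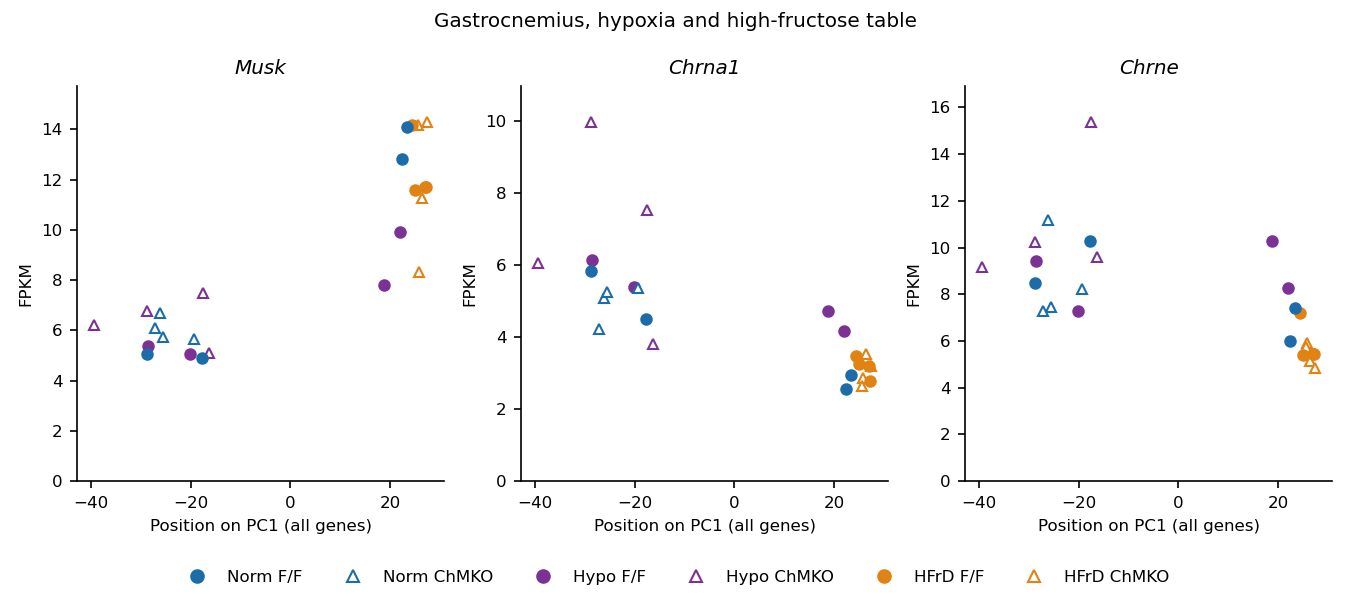
FPKM of Musk, Chrna1 and Chrne in the 24 gastrocnemius libraries of the stress table, against the position of the library on the first principal component of all genes; filled circles are F/F and open triangles ChMKO, in blue (Norm), purple (Hypo) and orange (HFrD). Musk lies at 4.89 to 7.49 in the set below 0 and 7.81 to 14.3 in the set above 0, also within Norm F/F, while Chrne overlaps between the sets.

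Differences between the genotypes in their response were tested directly. For hypoxia 0 of 9 genes were called (0 at an unadjusted p under 0.05), with 0% of all genes called (132 at an unadjusted p under 0.05). For the diet 0 of 9 were called (2 at an unadjusted p under 0.05, Rapsn at −0.43 ± 0.12 and Lrp4 at −0.50 ± 0.18, adjusted p = 0.451 for both), with 0% of all genes called (1107 at an unadjusted p under 0.05). Without Norm F/F library N_WTc369, which lies in the low set, Rapsn (−0.45 ± 0.12, adjusted p = 0.0403) and Colq (−0.46 ± 0.14, adjusted p = 0.0496) were called, as were 10.2% of all genes. This interaction cannot be told apart from the split, since the ChMKO contrast lies wholly across the sets and the F/F contrast only in part, and no fit within a set was possible.

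The genes that moved most like Chrne and Chrna1 from library to library were found after the mean of each group was removed from log2(FPKM + 1). The points share their libraries and, in the stress table, the split. Over the 20 chow libraries Chrne was most like Crym (Pearson r = 0.828), 4930544D05Rik (0.794), which lies inside Chrne on the opposite strand, and Etv4 (0.754), and Chrna1 was most like Prss23 (0.905), Etv5 (0.89) and Sdhaf2 (0.832). Over the 24 stress libraries Chrne was most like Golga7b (0.768), Fkbp14 (0.748) and Slc25a10 (0.719), and Chrna1 most like Suv39h1 (0.862), Mdga1 (0.854) and Rpl10a (0.854). None of the 3 most alike was shared between the tables for either gene. Within the 10 genes, Chrna1 and Chrnd correlated at 0.783 in chow and 0.758 in the stress table, Chrna1 and Colq at 0.656 and 0.816, and Chrna1 and Chrnb1 at −0.661 and 0.344.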

How the data were processed

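The authors trimmed reads with fastp 0.18.0 and aligned them with HISAT2 2.1.0, and the submitters' notes also name Bowtie2 2.2.8, StringTie 1.3.1, RSEM and GRCm39 (chow positions follow GRCm38). They deposited FPKM per gene, which is analysed here, for 62 libraries from total RNA prepared with a NEBNext Ultra kit. The C2C12 and AAV tables name no unit and were taken as FPKM from their values. No table of counts was used here, and the DESeq2 test of the study was not run. Reads recovered from the FPKM of the stress table, as described below, served for voom and for the Chrng reads.

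Groups were compared in pairs with limma 3.58.1 (lmFit, eBayes with trend, two-sided, R 4.3.3) on log2(FPKM + 1) keeping genes that averaged 0.5 FPKM or more over the libraries of a comparison, with Benjamini-Hochberg adjustment over all genes tested and calls at 0.05. The difference of 2 differences was tested for muscle, hypoxia and diet. In the stress table at least 99.85% of values per library came out as whole reads (tolerance 0.01) from FPKM and the length column, and voom was run on those reads. The 10 genes, the gene lists and the promoter motifs were chosen with earlier results of these data known. The rule for naming genes was to give all 10 in every group, values per library for Chrne, Chrng and called genes, up to 4 called genes per list with the largest change (an item that the rule names is not reported here), and the 3 genes most like Chrne and Chrna1. Alternatives were a pseudocount of 0.1, a filter at 1 FPKM or none, rescaling by the median of ratios, a fit of all groups in a table, voom, a replicate block, and leaving out each library. The fits within sets of the stress libraries were chosen after seeing the data. On simulated data with 200 genes changed by 1 on the log2 scale, 93.5% were recovered for the SOL genotype comparison (11504 genes), 96% for HFrD (9120), 98% for AAV (9759) and 99% for C2C12 (11363), and 5.56%, 4.95%, 6.22% and 5.71% of calls were false. Noise was drawn independently, genes below 1 FPKM were left out, and the changed genes had a mean log2(FPKM + 1) above 2. Chrnd and Lrp4 averaged below that level in every muscle group. Smaller changes and the Norm and Hypo comparisons were not simulated, so these rates do not give the power for them.

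Replicate numbers paired the AAV libraries (correlations of deviations 0.21 to 0.49 over 5 pairs, from the data and not the labels). GC and SOL libraries with 1 number were taken as 1 mouse, with correlations of −0.017 to 0.32 in F/F and 0.021 to 0.049 in ChMKO. The SOL F/F library titled 59 has a column numbered 69. No 2 libraries held identical values (0 pairs). Second entries of Chrne and Rapsn on unplaced scaffolds (at most 0.0373 and 0.502 FPKM) were not used.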

Additional observations from a re-analysis of the deposited data

Results flagged for a closer look

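Of 140 groups of values (10 genes in 14 groups), 11 held a library whose gap to its nearest neighbour exceeded the 95% critical value of Dixon's test, and chance gives about 7. In soleus, Chrna1 was 11.4 FPKM in ChMKO library 59 (others 9.01 to 9.58), Lrp4 was 1.32 in F/F library 71 (others 2.16 to 2.44) and Rapsn was 5.48 in F/F library 57 (others 7.46 to 8.22). In gastrocnemius on chow, Lrp4 was 2.20 in ChMKO library 59 (others 1.08 to 1.31). In the stress table, Lrp4 was 1.76 in Norm ChMKO library N_KO_370 (others 1.24 to 1.31) and 2.22 in HFrD F/F library WT_C294 (others 1.06 to 1.20). HFrD F/F library WT_C301 was high for Chrne (7.21, others 5.38 to 5.43), Musk (14.2, others 11.6 to 11.7) and Chrng (0.0375, or 3 reads, others 0, which lies within what a count of 0 allows). Chrng was 0.672 in Hypo ChMKO library H_KOc345 (others 0 to 0.0148), the library with high Myog, Mymk and Myh3 described above. In C2C12 OE, Chrng was 31.8 in culture 3 (others 34.4 to 34.7).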

How the results depend on the processing

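Over the alternatives run, the number of the 9 tested genes called stayed at 0 for the 5 genotype comparisons, AAV, both hypoxia comparisons, the diet in F/F and the muscle and hypoxia interactions. It ranged from 6 to 7 for SOL against GC in F/F, 6 to 8 in ChMKO, 6 to 7 for the diet in ChMKO and 5 to 6 in C2C12. With leave-one-out the diet interaction ranged from 0 to 2 calls, the 2 without Norm F/F library N_WTc369. With the replicate block the counts were 6 and 7 for SOL against GC in F/F and ChMKO, 0 for AAV, 6 for C2C12 and 0 for the muscle interaction, and the block changed no call. No direction of a called gene reversed. Musk in SOL against GC of ChMKO lost its call under 10 alternatives, Dok7 in F/F under rescaling, and Lrp4 in C2C12 without 3 cultures. Chrng in muscle lies below the filter and was not tested, and the fetal share by group means differed from the mean of shares by less than the spread. The C2C12 depth is unknown.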
